A study of Drosophila melanogaster with 12 samples.

Results

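The UDP-glycosyltransferases of Drosophila melanogaster were examined in polysome fractions of male flies kept on yeast-poor or yeast-rich food. Members were the genes whose current symbol begins with Ugt and a digit, taken from array probe sets that name 1 gene only. This gave 35 of the 11982 genes named on the array, each with 1 probe set. Of these, 28 were bright enough to test, among 9494 genes tested in all. The choice used no measured value, except that the brightest probe set would have stood for a gene with several, which no member had.

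Whole males of w1118, a laboratory strain with white eyes, 1 to 2 days old at the start, were held for 6 days on food with 0.25% or 4% yeast extract (YE), about 100 flies per extract. Lowered yeast is a form of dietary restriction in flies, and the 4% YE food is the richer diet it was set against. Extracts were run through sucrose gradients, and RNA was isolated from a high fraction of mRNAs with 5 or more ribosomes and a low fraction with 1 to 4. The 4 groups were the high fraction on 0.25% YE, the high fraction on 4% YE, the low fraction on 0.25% YE and the low fraction on 4% YE, each with 3 biological replicates, from 6 gradients and 12 arrays. All groups shared strain, sex, age and time on food, and mRNA without ribosomes was not measured.

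UDP-glycosyltransferases (UGTs) are membrane enzymes of the endoplasmic reticulum that join a sugar from a UDP-sugar donor to small fat-soluble molecules, which makes them easier to dissolve and to excrete. In insects the usual donor is UDP-glucose. Fly UGTs act on plant toxins, insecticides, pigments and odorants, and are found in the fat body, gut, Malpighian tubules and antennae. They form phase II of detoxification beside the glutathione S-transferases, after the cytochrome P450s of phase I. The number and letter in a symbol give the sequence family and subfamily.

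Levels are array intensities after quantile normalization, which gives all arrays the same distribution, so a level is relative to the other transcripts of its array. Between 59.0% and 66.4% of probe sets per array were above background, meaning above the 95th percentile of the control probe sets of that array. Replicate 1 of each group stood apart: within a group its log2 intensities had correlations of 0.859 to 0.943 with the other 2 replicates, which had 0.979 to 0.988 between them. Counts are therefore given with and without replicate 1. Of the male accessory gland markers, 6 of 6 had a probe set and none was at background in every array, whereas the female yolk gene Yp1 was above background in 0 of 12 arrays, Yp2 in 4 and Yp3 in 9. A limma model gave log2 differences with standard errors (SE), n = 3 arrays per group, and an adjusted p under 0.05 is a call.

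Of the 35 members, 22 were above background in all 12 arrays and 5 in none. Those 5 were Ugt35E2, Ugt307A1, Ugt37C1, Ugt49B2 and Ugt35D1. Ugt35E1 was above background in 4 arrays and Ugt37E1 in 1, and these 7 members were too dim to test. Dimness here is a property of the probe set in whole-fly RNA, and says nothing of single tissues. The brightest member left out, Ugt35E1, had a mean intensity of 15.5, and the dimmest one tested, Ugt303B2, had 29.2. The probe sets of Ugt50B3, Ugt37D1 and Ugt36E1 are of the kind that may share probes with other transcripts, so these values may not be of 1 gene alone.

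**Figure D1:**
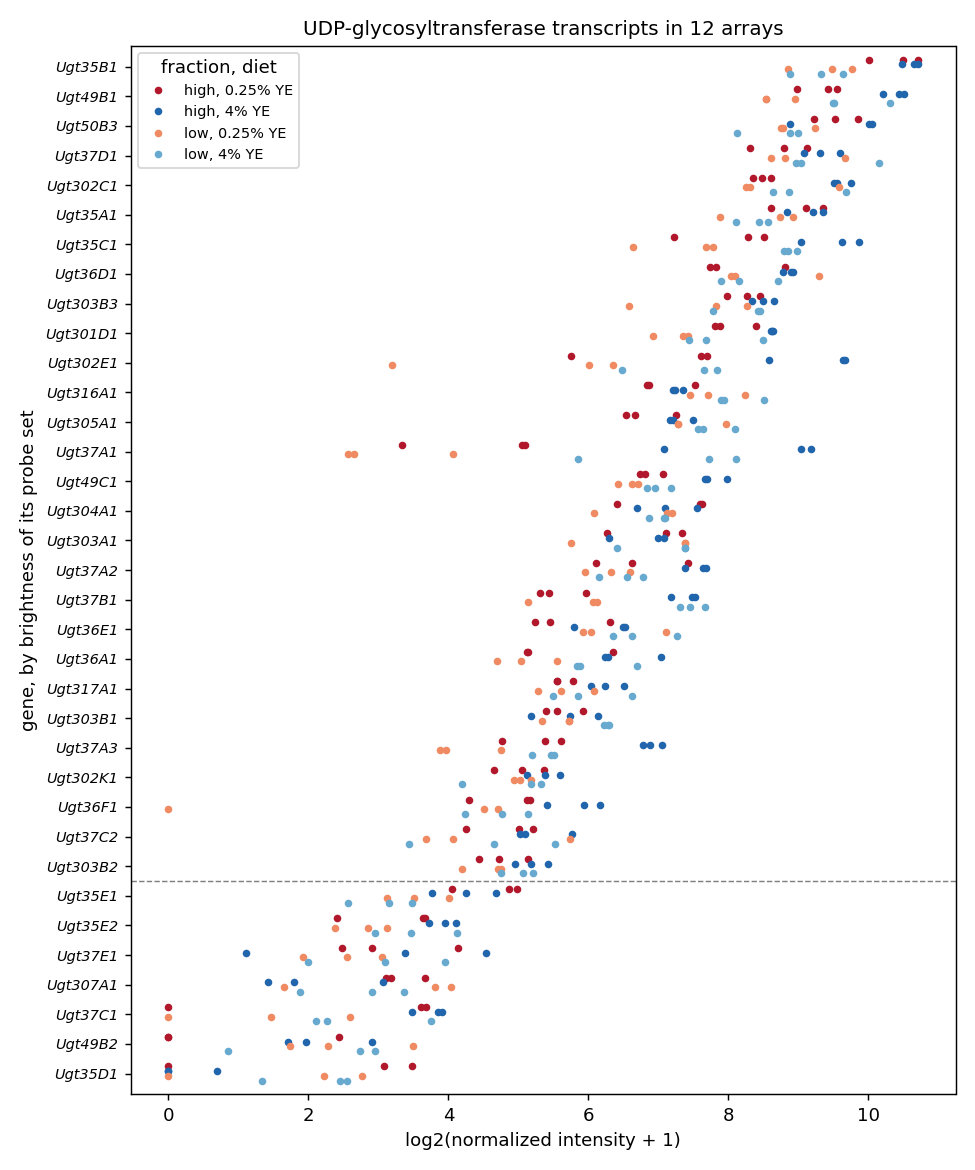
Normalized intensity (log axis) of each of the 35 family members in every array of the 4 groups, with members ordered by brightness. The 7 members beyond the dashed line were too dim to test, and intensities of different probe sets do not rank genes by abundance.

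The 5 brightest probe sets were those of Ugt35B1, Ugt49B1, Ugt50B3, Ugt37D1 and Ugt302C1. Ugt37D1 had 560, 445 and 318 in the high fraction on 0.25% YE, against 776, 633 and 542 on 4% YE. In the low fraction it had 817, 392 and 449 on 0.25% YE, against 1136, 500 and 527 on 4% YE. Diets overlapped in both fractions, and its averaged diet difference of -0.47 missed the threshold (limma adjusted p = 0.429). Ugt302C1 had 389, 358 and 327 in the high fraction on 0.25% YE, against 750, 732 and 865 on 4% YE. The low fraction had 770, 304 and 316 on 0.25% YE, against 822, 465 and 397 on 4% YE. The diets were apart in the high fraction and overlapped in the low one, and neither difference was called (high -1.12 ± 0.35, adjusted p = 0.16, low -0.35, adjusted p = 0.868). With the replicate block the high-fraction difference passed (adjusted p = 0.0494). The other 3 bright members are described with the comparisons below.

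The first comparison asked what the yeast-poor diet did to the level of each UGT on polysomes, with both fractions weighted equally. Both fractions of a gradient entered as independent arrays, so these averaged p-values can be too small. On 0.25% YE, 7 of the 28 tested UGTs fell and 0 rose. The 7 were Ugt37A1, Ugt302E1, Ugt37B1, Ugt35C1, Ugt37A3, Ugt49B1 and Ugt49C1, with falls of 1.58-fold to 4.63-fold for all but Ugt37A1, whose low fraction reached background. For all probe sets tested, 2.9% were called lower and 1.23% higher. The member differences ran from -4.04 to 0.07 with a median of -0.48 on the log2 scale, against 0.04 over all probe sets, and 26 of 28 were below 0. The median is the same with Ugt37A1 at its bound, since that value also lies below the median. At an unadjusted p under 0.05 there were 12 members, or 42.9%, against 15.7% of all probe sets. Since a gene can pass the intensity filter through its brighter diet alone, the fit was also made with no filter, and there 6 of all 35 members fell and 0 rose, where 1.47% of all probe sets were called lower and 0.783% higher.

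**Figure D2:**
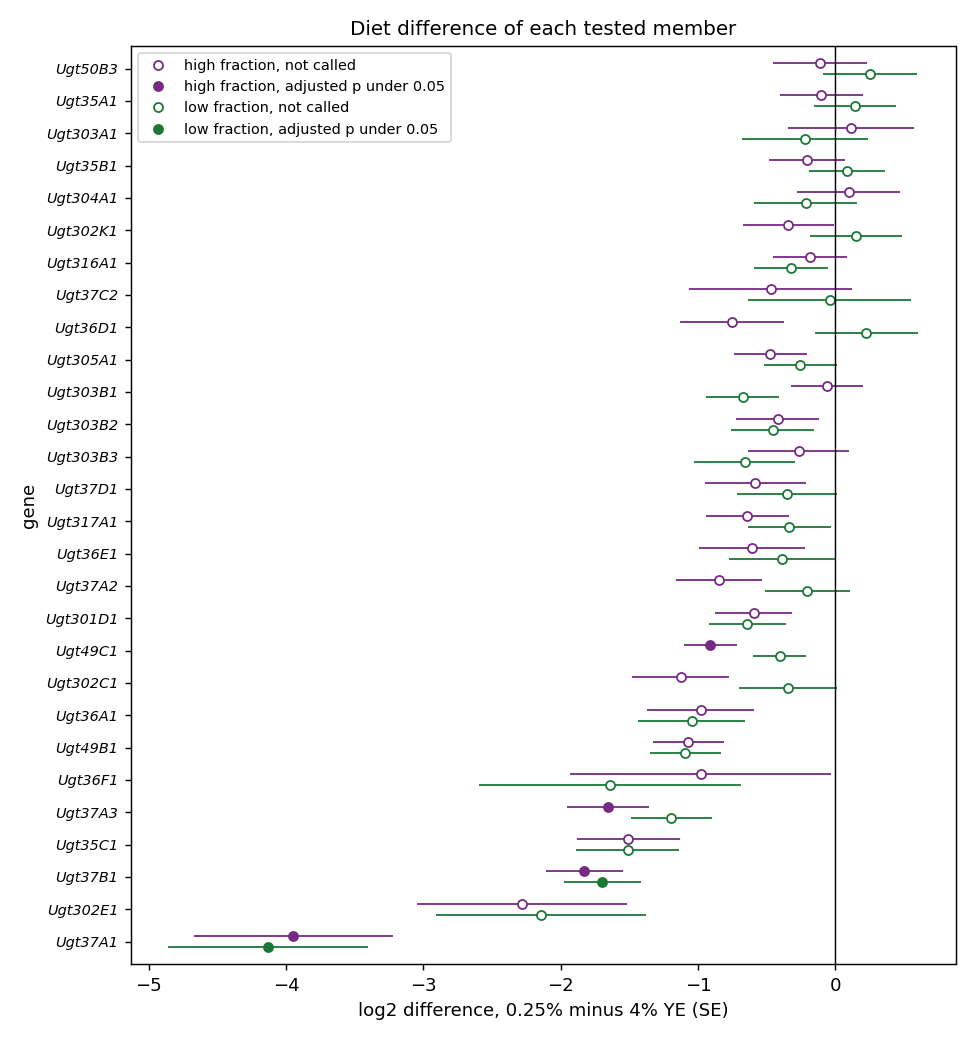
Log2 difference between diets (0.25% minus 4% YE) with SE for the 28 tested members, in the high and the low fraction. Filled symbols are called by limma, and 26 members lie below 0 for the high fraction and 23 for the low.

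Within the Ugt37 family, 8 genes were on the array, 6 were tested and 3 fell. Ugt37A1 had 9.10, 32.0 and 33.3 in the high fraction on 0.25% YE, against 135, 528 and 581 on 4% YE. In the low fraction it had 5.28, 4.93 and 15.8 on 0.25% YE, against 56.6, 210 and 275 on 4% YE. Every array on 0.25% YE was below every array on 4% YE, in both fractions. Averaged over fractions it fell by 4.04 ± 0.51 (adjusted p = 0.000801). That fitted value rests in part on arrays at background. In the high fraction it fell by 3.94 ± 0.73 (adjusted p = 0.0168), with 2 of 3 arrays on 0.25% YE above background. In the low fraction all 3 arrays on 0.25% YE were at background, so the gene was at least 7.02-fold lower there (adjusted p = 0.017). The averaged call held under all 20 alternatives. The high-fraction call was lost with no intensity filter (adjusted p = 0.0628), without replicate 2 or 3 of the high fraction on 4% YE (0.0927 and 0.0921) and without replicate 1 of that fraction on 0.25% YE (0.0563). The low-fraction call was lost with no filter (0.0742), without replicate 2 or 3 of the low fraction on 4% YE (0.0973 and 0.0925) and without replicate 1 or 2 of that fraction on 0.25% YE (0.051 and 0.0829).

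Ugt37B1 had 42.2, 61.4 and 38.6 in the high fraction on 0.25% YE, against 183, 179 and 144 on 4% YE. The low fraction had 34.4, 68.6 and 66.3 on 0.25% YE, against 203, 174 and 157 on 4% YE. The arrays on 0.25% YE differed more among themselves, in proportion, than those on 4% YE, and the diets did not overlap in either fraction. It fell by 1.83 ± 0.28 in the high fraction (adjusted p = 0.0058) and by 1.70 ± 0.28 in the low (adjusted p = 0.0123). Averaged, the fall was 3.39-fold, -1.76 ± 0.20 on the log2 scale (adjusted p = 0.000272), and it held under all 20 alternatives. On the values as deposited the calls within single fractions were lost (adjusted p = 0.134 high, 0.227 low), and that of the low fraction was also lost without replicate 1 or 2 of the low fraction on 4% YE (0.0526 and 0.0627).

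Ugt37A3 had 40.5, 47.7 and 26.3 in the high fraction on 0.25% YE, against 132, 109 and 117 on 4% YE. Its low fraction had 13.7, 14.6 and 25.9 on 0.25% YE, against 35.7, 44.4 and 43.4 on 4% YE. The groups did not overlap, but only 1 of 3 arrays of the low fraction on 0.25% YE was above background. The averaged fall was 2.69-fold (SE 0.21 on the log2 scale, adjusted p = 0.00207). In the high fraction it fell by 1.66 ± 0.30 (adjusted p = 0.0148), while the low fraction, at -1.19 ± 0.30, missed the threshold (adjusted p = 0.103). On the values as deposited neither the averaged call (adjusted p = 0.0794) nor that of the high fraction (0.381) held. The high-fraction call was also lost without any 1 of the 3 replicates of the high fraction on 4% YE (0.0659, 0.0674 and 0.0781) and without replicate 3 of that fraction on 0.25% YE (0.0675). Ugt37A2, whose gene lies next to that of Ugt37A3, had -0.53 and was not called (adjusted p = 0.263).

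In the Ugt35 and Ugt302 families 1 of 3 tested members fell in each, and differences between members were not tested. Ugt35C1, long known as Ugt86Dd and linked to nicotine resistance in this species, had 149, 363 and 310 in the high fraction on 0.25% YE, against 525, 933 and 791 on 4% YE. In the low fraction it had 99.0, 204 and 220 on 0.25% YE, against 446, 505 and 463 on 4% YE. Replicate 1 was the lowest array of every group, yet the diets did not overlap. The averaged fall was 2.85-fold, -1.51 ± 0.27 (adjusted p = 0.0066), and held under all 20 alternatives. Within single fractions the same difference missed the threshold (-1.51 ± 0.38 in each, adjusted p = 0.0722 high and 0.103 low), and a block on the replicate number brought it past (0.00534 and 0.00658).

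Ugt302E1 had 52.8, 207 and 194 in the high fraction on 0.25% YE, against 383, 817 and 801 on 4% YE. Its low fraction had 8.13, 63.8 and 80.5 on 0.25% YE, against 88.4, 201 and 228 on 4% YE. Replicate 1 was far below the others in every group, while each replicate number was lower on 0.25% YE than its counterpart on 4% YE. The averaged difference was -2.21 ± 0.54 (adjusted p = 0.0402), and the block on replicate number narrowed it (adjusted p = 0.000264). The call held under 10 of 20 alternatives. This call was lost on the values as deposited (adjusted p = 0.0646), with no filter (0.119), without replicate 1, 2 or 3 of the high fraction on 4% YE (0.0538, 0.103 and 0.0991), without replicate 2 or 3 of the low fraction on 4% YE (0.106 and 0.1) and without replicate 1, 2 or 3 of the high fraction on 0.25% YE (0.076, 0.0532 and 0.0654). Within single fractions it was called with the block (0.00428 high, 0.00725 low) and not called in the model without it (-2.28 ± 0.77, adjusted p = 0.192, and -2.14 ± 0.77, adjusted p = 0.352).

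**Figure D3:**
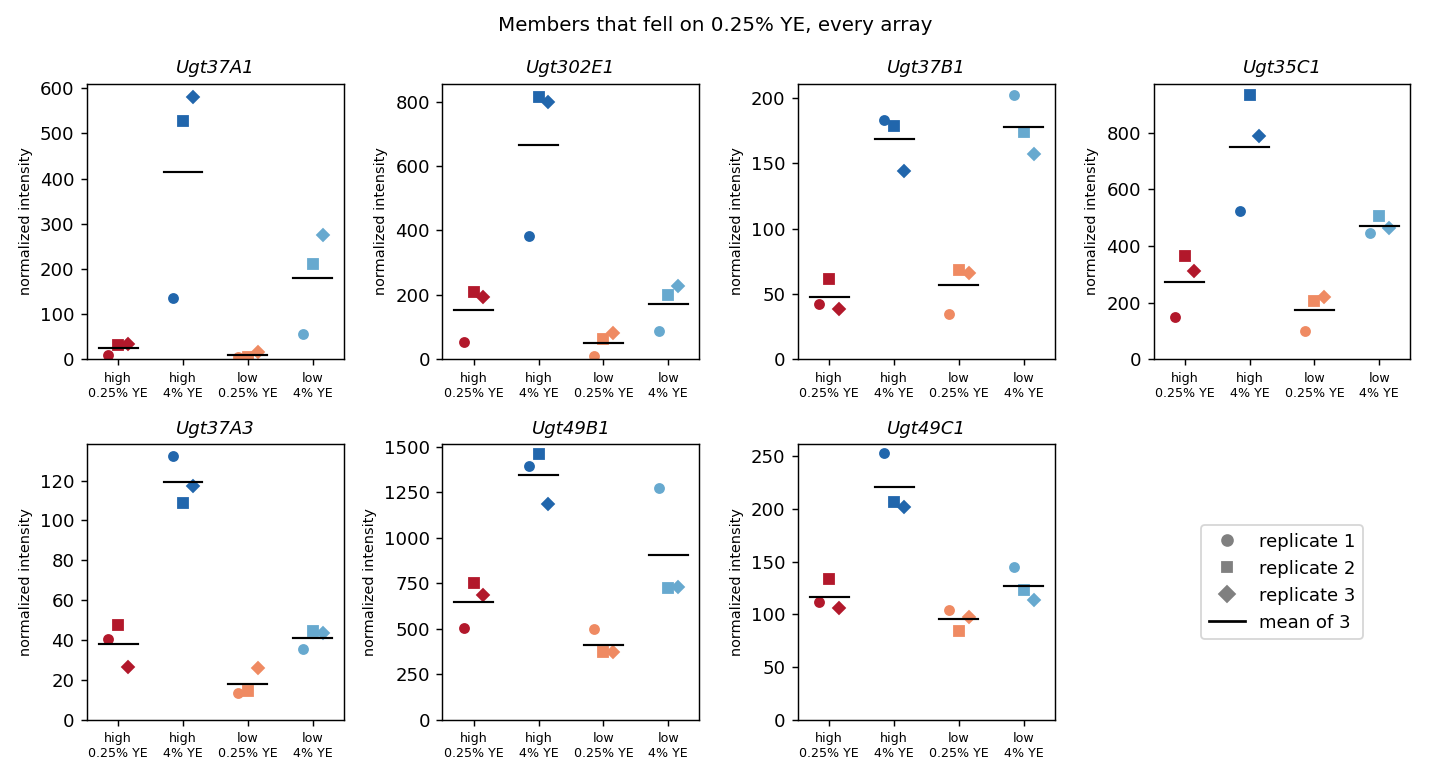
Normalized intensity in every array (linear axis) of the 7 members called lower on 0.25% YE, by fraction and diet, with a marker shape for each replicate number. In each fraction the arrays on 0.25% YE lie below those on 4% YE for every one of the 7, and replicate 1 of Ugt37A1 and Ugt302E1 lies low in the high fraction of both diets. The 7 were chosen by their diet call on these same arrays, so the separation adds no support to the calls. The share of all probe sets with such separation was not computed.

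Both tested members of the Ugt49 family fell. Ugt49B1 had 503, 750 and 688 in the high fraction on 0.25% YE, against 1392, 1458 and 1184 on 4% YE. In the low fraction it had 496, 373 and 370 on 0.25% YE, against 1271, 722 and 727 on 4% YE. The averaged fall of 2.12-fold, -1.08 ± 0.18 (adjusted p = 0.00484), held under all 20 alternatives. Neither fraction alone passed (adjusted p = 0.064 high and 0.0807 low), and both did with the block (0.038 and 0.0485). Ugt49C1, next to it in the genome, had 112, 133 and 106 in the high fraction on 0.25% YE, against 253, 207 and 202 on 4% YE. Its low fraction had 104, 84.6 and 97.4 on 0.25% YE, against 144, 123 and 113 on 4% YE. The diets did not overlap for either gene in either fraction, with a smaller gap for Ugt49C1.

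Ugt49C1 fell 1.58-fold in the average, -0.66 ± 0.14 (adjusted p = 0.0161), and by 0.91 ± 0.19 in the high fraction (adjusted p = 0.0341), with -0.41 ± 0.19 in the low (adjusted p = 0.578). The averaged call was lost on the values as deposited (0.491), without replicate 3 of the high fraction on 0.25% YE (0.0501) and without replicate 2 of the low fraction on 0.25% YE (0.0563). The high-fraction call held under 9 of 20 alternatives. It was lost on the values as deposited (0.638), with median centring (0.0548), without replicate 1, 2 or 3 of the high fraction on 4% YE (0.118, 0.111 and 0.101), without replicate 2 or 3 of the low fraction on 4% YE (0.0647 and 0.0603), without replicate 1, 2 or 3 of the high fraction on 0.25% YE (0.0634, 0.0522 and 0.139) and without replicate 2 of the low fraction on 0.25% YE (0.0558).

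By fraction, 4 members fell in the high fraction (Ugt37A1, Ugt37B1, Ugt37A3 and Ugt49C1) and 2 in the low (Ugt37A1 and Ugt37B1), and 0 rose in either. Of all probe sets, 1.23% were called lower and 0.533% higher in the high fraction, and 0.87% lower and 0.0977% higher in the low. At an unadjusted p under 0.05 limma gave 10 members (35.7%) for the high fraction, against 13.6% of all probe sets, and 9 (32.1%) for the low, against 9.01%. The median member difference was -0.60 for the high fraction and -0.37 for the low, against 0.02 and 0.03 over all probe sets. In 21 members the difference was below 0 in both fractions, and in 0 it was above 0 in both. Counts without replicate 1 were 15 fallen in the average, 13 for the high fraction and 6 for the low, with 0 risen in each. Calls over all probe sets were then more frequent, with 10.4%, 10.7% and 4.42% of all probe sets lower and 11.9%, 11.5% and 3.53% higher. With the replicate block the member counts were 9, 8 and 5 fallen and 0 risen, where 4.64%, 2.34% and 1.8% of all probe sets were lower and 3.19%, 1.89% and 0.453% higher. The averaged calls gained with the block were Ugt302C1 (adjusted p = 0.0461) and Ugt36A1 (0.0116). On the values as deposited 4, 1 and 1 members fell, where the median of all probe sets was itself at 0.18, 0.21 and 0.14. In the high fraction 6 of all probe sets were then called higher and 35 lower, against 60 and 138 after quantile normalization. The median member difference was below 0 under each of the 3 scalings.

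Single arrays moved the counts within fractions. Against 4 members in the high fraction, leaving out replicate 1, 2 or 3 of the high fraction on 4% YE gave 2, 1 and 1. Lower calls over all 11261 probe sets tested were then 76, 46 and 46, against 138. Leaving out replicate 1 or 3 of the high fraction on 0.25% YE gave 2 each, where all probe sets had 136 and 66 lower calls. Leaving out replicate 1 of the low fraction on 0.25% YE gave 8, and lower calls over all probe sets then also rose well above 138. Against 2 in the low fraction, leaving out replicate 1, 2 or 3 of the low fraction on 4% YE gave 1, 0 and 1, and leaving out replicate 1 or 2 of that fraction on 0.25% YE gave 1 each. Here all probe sets had 65, 41, 49, 108 and 51 lower calls, in that order, against 98. The averaged count ranged from 5 to 8 over single arrays.

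Of the 21 tested members not called in the average, 2 had differences under -1. Ugt36F1 had -1.31 ± 0.67 (adjusted p = 0.385), a value in which 1 array of the low fraction on 0.25% YE was below 0 and was floored. Its low-fraction means were 15.4 on 0.25% YE and 26.0 on 4% YE, with 1 of 3 arrays on 0.25% YE above background. Ugt36A1, also known as Dorothy, whose regulatory region is active in the lymph gland and pericardial cells, had -1.01 ± 0.28 (adjusted p = 0.0659). Another 10 lay between -1 and -0.3, and 9 lay within 0.3 of 0. None of the 4 tested members of the Ugt36 family and none of the 4 of the Ugt303 family was called. Ugt35B1, a UGT of the antenna, had -0.06 (adjusted p = 0.931) and Ugt50B3 had 0.07 (adjusted p = 0.935).

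Many UGT genes sit next to each other. In the gene order of RefSeq's Release 6 assembly, 23 of the 35 lie in 6 runs, with 3 other genes between them in all, and these hold 20 of the 28 tested members and 5 of the 7 fallen ones. The fallen members were thus in runs about as often as the tested members in general. The longest run holds 10 UGTs from Ugt35C1 to Ugt303A1, of which 8 were tested and 2 fell, Ugt35C1 and Ugt302E1. Between and beside those, Ugt302K1 had an averaged difference of -0.10, Ugt302C1 -0.73, Ugt35B1 -0.06, Ugt35A1 0.02, Ugt304A1 -0.06 and Ugt303A1 -0.05. Neighbours in this run ranged from a called fall to values near 0, with no test between them. In the run of Ugt303B3, Ugt303B1 and Ugt303B2 the differences were alike and not called (-0.46, -0.37 and -0.44). Ugt37A1 and Ugt37B1, with the falls of lowest adjusted p, lie in no run.

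**Figure D4:**
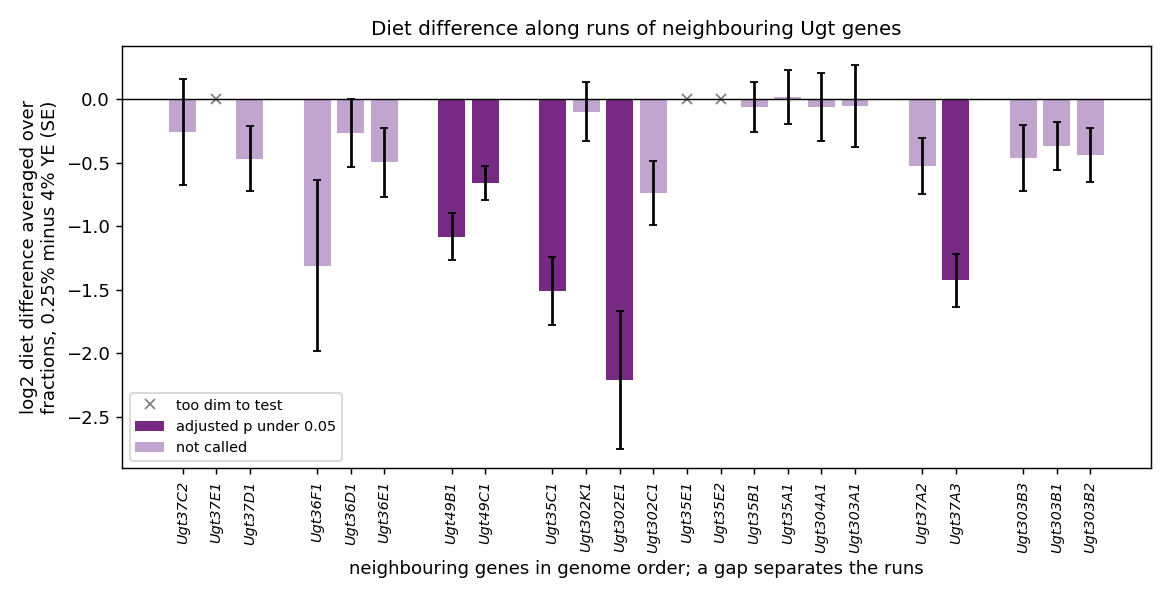
Averaged diet difference (0.25% minus 4% YE, log2, with SE) of the UGTs that lie in runs of neighbouring genes, in gene order, with crosses for members too dim to test. Filled bars are called, and called and uncalled members stand side by side in the run of 10.

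The second comparison was the translational index, the log2 level in the high minus that in the low fraction, which asks how heavily an mRNA is loaded with ribosomes relative to other mRNAs. Both fractions of a gradient entered as independent arrays here too, so p-values of the index can be too large. On 0.25% YE the index of 2 members was called higher and of 0 lower, and on 4% YE 5 were called higher and 1 lower. Of all probe sets, 9.66% were called higher and 11.8% lower on 0.25% YE, and 16.3% higher and 17.9% lower on 4% YE. At an unadjusted p under 0.05 there were 7 members on 0.25% YE, against 36.6% of all probe sets, and 11 on 4% YE, against 44.5%. The members' shares of 25% and 39.3% were below those of all probe sets. The median member index was 0.37 on 0.25% YE and 0.58 on 4% YE, against 0.02 over all probe sets on both. It was above 0 on both diets in 17 members, below 0 on both in 5, and of unlike sign in 6.

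Ugt35B1 was called on both diets. Its intensities on 0.25% YE were 1035, 1672 and 1453 in the high fraction, against 462, 716 and 874 in the low. On 4% YE they were 1427, 1678 and 1606 in the high fraction, against 472, 795 and 641 in the low. The fractions did not overlap on either diet. The index was 1.04 ± 0.28 on 0.25% YE (adjusted p = 0.0218) and 1.33 ± 0.28 on 4% YE (adjusted p = 0.00347). The call on 4% YE held under all 20 alternatives. That on 0.25% YE was lost without replicate 2 or 3 of its high fraction (0.103 and 0.0734) and without replicate 1 or 2 of its low fraction (0.0552 and 0.0512).

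Ugt37A3, with the intensities given above, also stood higher in the high fraction on both diets without overlap. The index was 1.05 ± 0.30 on 0.25% YE (adjusted p = 0.027), and on 4% YE the high fraction was 2.86-fold above the low (SE 0.30 on the log2 scale, adjusted p = 0.0025), a call that held under all 19 alternatives in which it was tested. The call on 0.25% YE, where 1 of 3 low-fraction arrays was above background, was lost on the values as deposited (0.0699), without replicate 2 of the high fraction (0.126) and without replicate 1 or 2 of the low fraction (0.0668 and 0.0881). Ugt49C1 had an index of 0.29 on 0.25% YE (adjusted p = 0.295) and 0.79 ± 0.19 on 4% YE (adjusted p = 0.00753), and the call on 4% YE held under all 20 alternatives. Of the members called higher in the high fraction on 4% YE, these 2 also fell with the diet. Both comparisons use the high-fraction arrays on 4% YE, so some overlap between them is built in. Its extent over all probe sets was not computed.

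Ugt37A2 had 68.4, 170 and 97.4 in the high fraction on 0.25% YE, against 60.7, 79.4 and 95.9 in the low. On 4% YE it had 165, 204 and 199 in the high fraction, against 109, 70.1 and 92.7 in the low. The fractions overlapped on 0.25% YE and were apart on 4% YE. Its index was 0.43 on 0.25% YE (adjusted p = 0.343) and 1.07 ± 0.31 on 4% YE (adjusted p = 0.0194). The call was lost without replicate 2 or 3 of the high fraction on 4% YE (0.0656 and 0.0604) and without replicate 2 or 3 of the low fraction on 4% YE (0.0769 and 0.0503).

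Ugt50B3 is the member of a UGT family shared by most insects. It had 600, 921 and 736 in the high fraction on 0.25% YE, against 602, 430 and 439 in the low. On 4% YE it had 470, 1068 and 1028 in the high fraction, against 280, 472 and 511 in the low. The fractions overlapped on both diets, since replicate 1 of the high fraction lay below the highest array of the low one. Its index was 0.61 on 0.25% YE (adjusted p = 0.216) and 0.98 ± 0.34 on 4% YE (adjusted p = 0.0437). The call held under 10 of 20 alternatives. It was lost with no filter (0.0847), without replicate 2 or 3 of the high fraction on 0.25% YE (0.0524 and 0.0556), without replicate 2 or 3 of the low fraction on 0.25% YE (0.0568 and 0.0514), without replicate 2 or 3 of the high fraction on 4% YE (0.166 and 0.154) and without replicate 1, 2 or 3 of the low fraction on 4% YE (0.155, 0.064 and 0.0543).

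Ugt316A1 was the 1 member called lower in the high fraction. It had 183, 113 and 116 in the high fraction on 0.25% YE, against 300, 208 and 174 in the low. On 4% YE it had 162, 150 and 147 in the high fraction, against 364, 245 and 238 in the low. Fractions overlapped on 0.25% YE and were apart on 4% YE. Its index was -0.72 on 0.25% YE (adjusted p = 0.0751, and 0.0103 with the replicate block) and -0.85 ± 0.27 on 4% YE (adjusted p = 0.0282). The call on 4% YE was lost on the values as deposited (0.371), without replicate 2 or 3 of the high fraction on 4% YE (0.08 and 0.0812) and without replicate 1 of the low fraction on 4% YE (0.103).

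**Figure D5:**
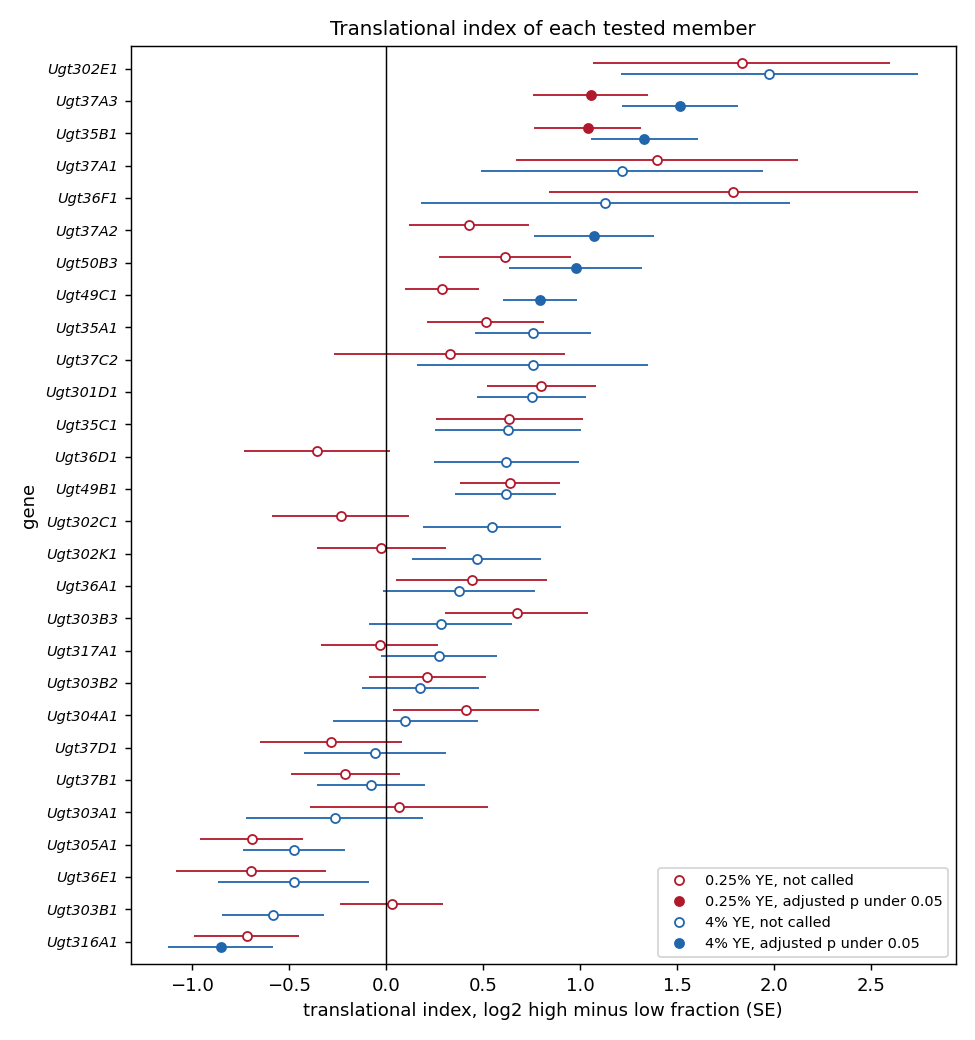
Translational index (log2 high minus low fraction, with SE) of the 28 tested members on 0.25% YE and on 4% YE. Filled symbols are called by limma: on 0.25% YE 2 members above 0, on 4% YE 5 above and 1 below.

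With the replicate block, which takes out what arrays of 1 replicate number share, 5 members were called higher and 3 lower on 0.25% YE, and 10 higher and 2 lower on 4% YE. Of all probe sets, 16.8% were then called higher and 18.1% lower on 0.25% YE, and 22.8% higher and 22.5% lower on 4% YE. Ugt302E1 then passed on both diets, with an index of 1.83 (adjusted p = 0.00271) on 0.25% YE and 1.98 (0.00099) on 4% YE. Ugt37A1 also passed on 0.25% YE (0.011) and on 4% YE (0.0153), as did Ugt301D1 (0.0373 and 0.0386 in that order) and, below 0, Ugt305A1 (0.00748 and 0.0311). Ugt36E1, found in olfactory neurons and also below 0, passed on 0.25% YE (0.0321), and Ugt35A1 (0.00715) and Ugt35C1 (0.0457) passed on 4% YE. The low fraction of Ugt37A1 on 0.25% YE was at background, so the high fraction there was at least 1.06-fold higher. Without replicate 1, 10 members were called higher and 3 lower on 0.25% YE, and 13 higher and 2 lower on 4% YE. Of all probe sets, 28.4% were then called higher and 29.1% lower on 0.25% YE, and 31.3% higher and 30.5% lower on 4% YE.

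Single arrays mattered here too. On 0.25% YE the count of 2 became 0 without replicate 2 of its high fraction or replicate 1 or 2 of its low fraction, 1 without replicate 3 of its high fraction and 7 without replicate 1 of it. On 4% YE the count of 6 became 3 without replicate 2 or 3 of its high fraction and 10 without replicate 1 of the low fraction on 0.25% YE. In each of these cases, on both diets, higher and lower calls over all probe sets moved in the same direction as the member count. Among the losses on 0.25% YE, that shift over all probe sets was least without replicate 1 of the low fraction. Scaling moved the splits: on the values as deposited the median index of all probe sets was 0.41 on 0.25% YE and 0.32 on 4% YE, and with median centring 0.12 and 0.07. As deposited, 9 members were called higher and 0 lower on 4% YE. All probe sets then split into 1460 higher and 123 lower on 0.25% YE (1088 and 1324 after quantile normalization), and 1865 higher and 538 lower on 4% YE (1831 and 2015 after quantile normalization). The median member index was above 0, and above that of all probe sets, under each of the 3 scalings.

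The third comparison asked whether the index itself differed between diets. In limma 0 of 28 members were called, and 0 had an unadjusted p under 0.05, against 4.3% of all probe sets. Of all probe sets, 0.00888% were called higher and 0% lower. Member values ran from -0.98 (Ugt36D1) to 0.66 (Ugt36F1, which has the floored array named above) with a median of -0.18, against -0.02 over all probe sets, and the lowest adjusted p was 0.995. For the 7 fallen members the changes lay between -0.50 (Ugt49C1) and 0.18 (Ugt37A1). The SE of the change ran from 0.27 to 1.35 over members with a median of 0.48, and the lack of a call does not show that the indices were alike.

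For context, other detoxification families were read in the same way. Among cytochrome P450s 13 of 74 tested genes fell on 0.25% YE in the average and 0 rose, with a median of -0.31, and among glutathione S-transferases 9 of 33 fell and 0 rose, with a median of -0.46. The share fallen was 17.6% and 27.3%, and no difference between families was tested. Of the genes that supply UDP-sugars or their precursors, 7 of 11 listed were tested and 1 fell, the galactokinase gene Galk. It had a mean of 1644 ± 378 in the high fraction on 0.25% YE and 4069 ± 473 on 4% YE, and 1061 ± 302 in the low fraction on 0.25% YE and 1932 ± 135 on 4% YE (SD, n = 3). Its averaged difference was -1.12 ± 0.17 (limma adjusted p = 0.00211). Galt, for the next enzyme of galactose use, had -0.66 (adjusted p = 0.0514), and sgl, the UDP-glucose dehydrogenase, had 0.17. On 4% YE the index of 4 of these 7 genes was called higher.

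None of 5 tested regulators of the response to foreign compounds was called in the averaged diet difference (0 at limma's threshold, 1 at an unadjusted p under 0.05). The transcription factor cnc had 0.03, its partner maf-S 0.43, its inhibitor Keap1 0.03, the nuclear receptor Hr96 -0.24 and tgo, a subunit of heterodimeric transcription factors, 0.14. None of 4 tested efflux transporters was called either (1 at an unadjusted p under 0.05), with Mdr49 at -0.97 (adjusted p = 0.206) and MRP at -0.61 (adjusted p = 0.34).

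Markers of the tissues that hold UGTs moved unequally with diet. Of 6 fat body genes, 2 fell in the average and 0 rose: Lsp2, a storage protein of the fat body, at -6.49 (adjusted p = 3.1e-05) and the transferrin gene Tsf1 at -1.07 (adjusted p = 0.000974). The summed level of the 6 was 9857 to 14632 in the high fraction on 0.25% YE, against 23169 to 24466 on 4% YE, and 8918 to 11300 in the low fraction on 0.25% YE, against 15662 to 20502 on 4% YE. Neither these sums nor those of the Malpighian tubule genes overlapped between diets in either fraction. Lsp2 alone averaged 112 in the high fraction on 0.25% YE and 6529 on 4% YE. The 4 fat body genes not called had averaged differences of -1.19 (Mtp, limma adjusted p = 0.0694) and -0.52 (fat-spondin), and, for the lipoprotein genes, -0.11 (apolpp) and 0.25 (Apoltp). The median of the fat body list was -0.80, with 5 of 6 genes below 0. Of 6 tested Malpighian tubule genes 0 were called, with a median of -0.29 and sums of 2107 to 2330 in the high fraction on 0.25% YE, against 2616 to 3123 on 4% YE. The low-fraction sums were 1259 to 1369 on 0.25% YE, against 1422 to 1851 on 4% YE.

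Of 7 tested midgut genes 1 fell, the maltase gene Mal-A1 (-0.53, adjusted p = 0.0295), with a list median of 0.09 and sums of 22833 to 27413 in the high fraction on 0.25% YE, against 27796 to 31584 on 4% YE. The other listed maltase gene, Mal-A7, had a larger difference of -1.59 and was not called (limma adjusted p = 0.0579). Averaged differences were above 0 in 4 midgut genes and below 0 in 3. The midgut sums of the low fraction were 16239 to 23303 on 0.25% YE, against 19960 to 24229 on 4% YE. Of 6 tested antennal genes 0 were called in the average, with a median of 0.30 and sums of 2435 to 3100 in the high fraction on 0.25% YE, against 1397 to 1687 on 4% YE. In that fraction 1 of them, Obp83b, was called higher on 0.25% YE (1.12 ± 0.25, limma adjusted p = 0.0437), and the median was 0.62. In the low fraction the antennal sums overlapped, with 2123 to 3907 on 0.25% YE and 2974 to 3286 on 4% YE, and the median was -0.06. Of 6 accessory gland genes 0 were called, with a median of -0.03, and of 6 testis genes Mst84Dc rose (0.55, adjusted p = 0.0393), with a median of 0.33. None of these 6 tissue lists had a gene at background in every array. The part of tissue makeup in the fall of the 7 UGTs was not tested, and in whole flies fewer cells of a type and less RNA per cell cannot be told apart.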

How the data were processed

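Array intensities of 12 Affymetrix Drosophila 2.0 arrays were used as deposited by the authors, 1 linear value per probe set, from 100 ng of biotin-labelled RNA per the labels. Array medians of 39.3 to 95.6 and 9.45% to 13.7% of values below 0 showed that the arrays were not on a common scale. The summarising program is not given in the sources used here.

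Values were quantile-normalized, 100 controls of 18869 probe sets dropped, values floored at 0 and put on the scale log2(value + 1), on which differences of dim genes can be understated, or overstated where an array was floored. The dimmest 40% (mean under 23.7) were left out, leaving 11261. One limma 3.58.1 model (R 4.3.3; lmFit, eBayes with intensity trend; 1 mean per group, 8 residual degrees of freedom) gave 6 contrasts. P-values are two-sided and Benjamini-Hochberg adjusted over all probe sets of a contrast. The procedure was tested on simulated data.

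Background in a group means that no array of it exceeded its own 95th percentile of controls (13.8 to 24.6 normalized). Folds against such a group are bounds, the brighter mean over that percentile or the array's own value, as means of log2. The background rule was chosen once the data had been seen. Members and lists were chosen with earlier results of these data known. Per-array values are given for called members whose replicates did not overlap, at most 5 risen and 5 fallen per contrast by adjusted p, and for the 5 brightest. Ugt302E1 exceeds that limit and was added after its values were seen.

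Symbols came from the platform annotation: 13647 probe sets had 1 symbol, 402 several and 4720 none, and 13544 matched the RefSeq gene table. Of 65 list entries 7 had no probe set. Replicate numbers come from the sample titles, where the first on 4% YE has none. Same-numbered arrays departed from their group means together in 12 of 12 pairs compared (correlation 0.166 to 0.669). Replicate 1 stood apart in every group, which by itself favours such positive values. Unlike-numbered pairs of replicates 2 and 3 from groups sharing a diet or a fraction had correlations of 0.0147 to 0.577. The check thus does not show that the number marks a shared batch, and the block was used only beside the model without it. P-values measure the spread between these biological replicates, with the 12 arrays taken as independent. Both fractions of a gradient came from 1 extract, with 3 gradients per diet, and no gradient term was fitted. P-values of the averaged diet difference can therefore be too small. Those of the index and of its change between diets, which compare fractions of the same gradient, can be too large. No pair of arrays was identical (0) and no per-sample column was left unused (0). Depth has no meaning for arrays, and 3 per group limit the precision.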

Additional observations from a re-analysis of the deposited data

Results flagged for a closer look

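Ugt36D1 drew attention because its index had opposite signs on the diets in every gradient. The index was -0.49, -0.27 and -0.31 in the gradients on 0.25% YE, against 0.07, 0.75 and 1.03 on 4% YE. The intensities were 447, 225 and 212 in the high fraction on 0.25% YE, against 442, 477 and 485 on 4% YE, and 628, 272 and 263 in the low fraction on 0.25% YE, against 419, 283 and 236 on 4% YE. The change in index was -0.98 ± 0.53 on the log2 scale, and it did not pass in limma (adjusted p = 0.995 over all probe sets). Replicate 1 had nearly the same high-fraction intensity on both diets, and replicates 2 and 3 did not. Among the other tested members, the gradient indices of Ugt49C1 and Ugt305A1 also did not overlap between diets, each with the same sign on both. The share of all probe sets with such separation, or with opposite signs, was not computed.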

How the results depend on the processing

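Over all tested members and contrasts 3306 results were recomputed: 69 lost a call and 99 gained one, of which 41 were gained without replicate 1 of every group and 21 with the replicate block. No called result changed sign (0). Against 2 and 6 members called for the index on 0.25% and 4% YE, and 4, 2 and 7 for diet in the high fraction, the low fraction and the average, the values as deposited gave 1 (high), 1 (low) and 4 (average), median centring gave 4 (index on 0.25% YE), and no filter gave 1 (low). The replicate block gave 8 and 12 for the indices and 8 (high) and 5 (low) for diet, with 9 in the average. Leaving out an array, or replicate 1 of every group, gave 0 to 13 and 3 to 15 for the indices, 1 to 13 (high), 0 to 6 (low) and 5 to 15 (average). The highest of each range came without replicate 1, where calls over all probe sets were also more frequent than with all 12 arrays. The index change stayed at 0 under every alternative run. An offset of 16, leaving out the dimmest 60% and averaging probe sets moved no count by over 1.5 times. Of the 7 fallen members, the averaged calls of Ugt37A1, Ugt37B1, Ugt35C1 and Ugt49B1 held under all 20 alternatives. The causes of these shifts were not tested. The signal over background limits Ugt37A1, Ugt37A3, Ugt302E1, Ugt36F1 and Ugt37C2 on 0.25% YE and the 7 untested members. It also limits Ugt36F1, Ugt37C2 and Ugt302K1 in the low fraction on 4% YE.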
